A study of Mus musculus with 24 samples.

Results

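The widest regions of the deposited H3K9me2 map are the subject here. They are the autosomal regions of at least 7200 bp, the 98th percentile of width over the 53224 autosomal regions, that held a read in any of the 24 libraries. There are 1116 of them among 53386 listed regions, and 6 more autosomal regions of that width held no read. The study sampled hearts of 6 C57BL6 mice, 3 female and 3 male, aged 12 months, after ischemic preconditioning by reversible ligation of the left coronary artery. Preconditioning consisted of 4 cycles of 5 min of ischemia and 5 min of reperfusion, and a final reperfusion of 30 min. From each heart the area at risk, the tissue fed by the ligated artery, and the remote myocardium outside that territory were taken. Each biopsy gave 1 H3K9me2 precipitation and 1 input library of unprecipitated chromatin, so 4 groups of 6 libraries were compared. All the mice were preconditioned, and sham-operated hearts were not analysed here.

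H3K9me2 is the dimethylated form of lysine 9 on histone H3. It is laid down mainly by the methyltransferases G9a (Ehmt2) and GLP (Ehmt1), is removed by demethylases such as Kdm3a, and spreads as broad, shallow domains over silent genes and gene-poor chromatin. Active promoters generally lack it.

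Widths were set by the authors' region calling and come in steps of 200 bp. On which libraries the regions were called is not given in the sources used here, so width may depend on the same reads. Counts in all listed regions ran from 416683 to 1196368 per H3K9me2 library of the area at risk, and for the remote myocardium from 443261 to 981763. Input libraries held 1286383 to 2478668 and 1405503 to 1770520 counts. Reads outside the listed regions are unknown, so a region is "lower" or "higher" only against the rest of the table, and a change alike in all regions would not show. The biopsies hold mixed cell types, and fewer cells with the mark and less mark per cell cannot be told apart. The libraries hold genomic DNA, so the tissue labels were not checked by expression.

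The promoters of 6 of these regions are shown so that start sites in regions below input can be compared with start sites in regions above it. Each is the stretch of 250 bases before a RefSeq start site, build GRCm38.p6, read 5′ to 3′ on the strand of the gene. Capitals mark GC boxes, GGGCGG or CCGCCC, that a search of both strands found. The 4 genes that follow lie in regions lower in H3K9me2 than in input. Rhof encodes a small GTPase of filopodia, Hook2 a microtubule-linking adaptor, Vegfa the main growth factor of blood vessels and Sphk2 a sphingosine kinase.
Rhof, chr5:123132630-123132879, minus strand: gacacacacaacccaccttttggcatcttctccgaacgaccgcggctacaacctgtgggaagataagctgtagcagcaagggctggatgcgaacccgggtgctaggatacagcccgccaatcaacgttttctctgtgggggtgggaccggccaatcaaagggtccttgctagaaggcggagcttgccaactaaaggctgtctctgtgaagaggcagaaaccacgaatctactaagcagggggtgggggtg
Hook2, chr8:84990373-84990622, plus strand: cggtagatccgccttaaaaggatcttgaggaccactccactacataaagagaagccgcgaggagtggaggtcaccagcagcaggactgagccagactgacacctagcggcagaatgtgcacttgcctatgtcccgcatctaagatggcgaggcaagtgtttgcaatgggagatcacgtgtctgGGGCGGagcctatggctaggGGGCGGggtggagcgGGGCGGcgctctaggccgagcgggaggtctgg
Vegfa, chr17:46032378-46032627, minus strand: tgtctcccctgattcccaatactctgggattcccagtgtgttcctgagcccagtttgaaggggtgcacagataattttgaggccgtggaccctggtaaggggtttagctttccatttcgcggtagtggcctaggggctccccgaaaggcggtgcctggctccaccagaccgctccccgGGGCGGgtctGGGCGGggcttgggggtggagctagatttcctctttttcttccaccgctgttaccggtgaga
Sphk2, chr7:45715208-45715457, minus strand: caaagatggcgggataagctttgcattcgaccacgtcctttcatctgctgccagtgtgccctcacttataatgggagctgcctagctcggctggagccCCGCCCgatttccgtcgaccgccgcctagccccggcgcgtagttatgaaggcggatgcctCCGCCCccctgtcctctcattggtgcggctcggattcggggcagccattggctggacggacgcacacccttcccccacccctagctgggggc
The noncoding genes Gm36798 and Gm33148 lie in regions higher in H3K9me2 than in input.
Gm36798, chr17:13183486-13183735, minus strand: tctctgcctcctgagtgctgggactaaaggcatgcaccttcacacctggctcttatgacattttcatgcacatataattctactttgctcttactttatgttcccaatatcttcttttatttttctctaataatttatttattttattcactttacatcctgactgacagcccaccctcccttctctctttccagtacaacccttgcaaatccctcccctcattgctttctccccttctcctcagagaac
Gm33148, chr7:142591409-142591658, plus strand: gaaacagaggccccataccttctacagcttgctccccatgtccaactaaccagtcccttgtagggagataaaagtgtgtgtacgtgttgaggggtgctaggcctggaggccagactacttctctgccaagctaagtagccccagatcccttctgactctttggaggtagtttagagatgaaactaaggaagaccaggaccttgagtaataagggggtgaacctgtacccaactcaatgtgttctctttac

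These stretches hold 11 CG dinucleotides in Rhof, 15 in Hook2, 11 in Vegfa and 20 in Sphk2, against 0 in Gm36798 and 1 in Gm33148. GC boxes numbered 3 in Hook2, 2 in Vegfa and 2 in Sphk2, and none was found in the other 3. Over all 31396 autosomal promoters of the RefSeq table the median was 6 CG dinucleotides, and 33.0% held a GC box. Of these promoters 652, belonging to 520 genes, start inside a widest region. Their median was 12 CG dinucleotides and 54.3% held a GC box. Promoters that start in other listed regions had a median of 15, with a GC box in 54.4%. Start sites in listed regions of both kinds thus held more CG dinucleotides than the median of all promoters. Among the widest regions it differed by call. Start sites in regions lower in both biopsies had a median of 14 CG dinucleotides, and 59.4% of 392 held a GC box. Those in regions called in neither biopsy had 8 and 48.9% (131 promoters), and the 11 promoters in regions higher in both had 1 and 27.3%. These 11 belong to 6 genes, and only 1 of them is a promoter of a protein-coding gene. For protein-coding genes alone the median was 15 in regions lower in both (321 promoters) and 10.5 in regions called in neither (92). All protein-coding promoters had a median of 10, so for the higher regions call and gene type cannot be told apart. A CCAAT box (CCAAT or ATTGG) was found in 29.9% of the 652 promoters and in 33.7% of all, and a TATA box (TATAAA or TTTATA) in 4.29% and 12.4%. An E-box (CACGTG) stood in 6.44% and 6.02%. A match is a description of these letters, not a bound site.

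The widest regions lay on and around genes. Widths ran from 7200 to 30600 bp with a median of 8400, against 2600 for the other autosomal regions with a read, and the regions covered 10.27 Mb. Of the 1116 regions, 735 (65.9%) lay within 2 kb of an end of a gene, 315 (28.2%) inside a gene and 66 (5.91%) between genes. Over all 47992 autosomal regions with a read the shares were 40.8%, 43.8% and 15.4%. A protein-coding gene was overlapped by 982 widest regions (88.0%), against 72.5% of all, and 236 (21.1%) overlapped at least 2, against 4.77%. In 119 (10.7%) a coding gene fitted whole, 134 genes in all, against 0.865% of all regions. A wider window holds more of everything. Per 100 kb the widest regions held 6.45 start sites and the other regions 6.46, so their many start sites matched their length. In total they reached 1400 annotated genes, of which 1096 are protein coding, or 9.57% of the coding genes reached by any autosomal region.

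They were also unevenly spread. Chromosome 11 held 150 of them, 13.4% of the set, and 4819 of the 47992 autosomal regions with a read. Chromosome 8 had 106 and the highest share of its own regions in the set (3.48%), and chromosome 13 had 7 and the lowest (0.56%). Within chromosomes, 716 stood within 100 kb of another and formed 229 clusters of at least 2, while 400 stood alone. Spacing was not worked out for other regions, so whether such clusters are particular to the widest regions was not tested. The largest cluster, 13 regions at chr11:119936400-120384399, runs past Baiap2 (an actin regulator), Aatk (a kinase) and Slc38a10 (an amino acid transporter). A cluster of 11 at chr10:79911800-80412199 includes Stk11, which encodes the AMPK-activating kinase LKB1, and Abca7, a lipid transporter. Another 11 at chr8:120168000-120685399 lie mainly over Gse1. Most of the set, 763 regions, overlapped another listed region, and 353 (31.6%) overlapped none, against 67.7% of all. Counts followed the stretch that no other region covers, with a median of 234 per uncovered kb over the 24 libraries in all widest regions and 241.6 per kb in those without overlap, so counts of overlapping regions stand for less than their full length.

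Precipitated chromatin held fewer of its counts in the widest regions than input did, in every mouse. In the area at risk the widest regions took 4.95, 5.31 and 6.13% of H3K9me2 counts (lowest, median and highest of 6 libraries) and 6.41, 6.56 and 7.26% of input counts. In the remote myocardium they took 5.01, 5.32 and 5.56% of H3K9me2 counts and 6.69, 6.87 and 7.07% of input counts. The H3K9me2 and input libraries did not overlap in either biopsy, and H3K9me2 lay below the input of the same mouse in 6 of 6 mice in both. On the log2 scale the ratio of the shares in a mouse ran from -0.37 to -0.23 (area at risk) or from -0.42 to -0.35 (remote myocardium). Mouse 23 had the highest share in both kinds of library of the area at risk.

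**Figure D1:**
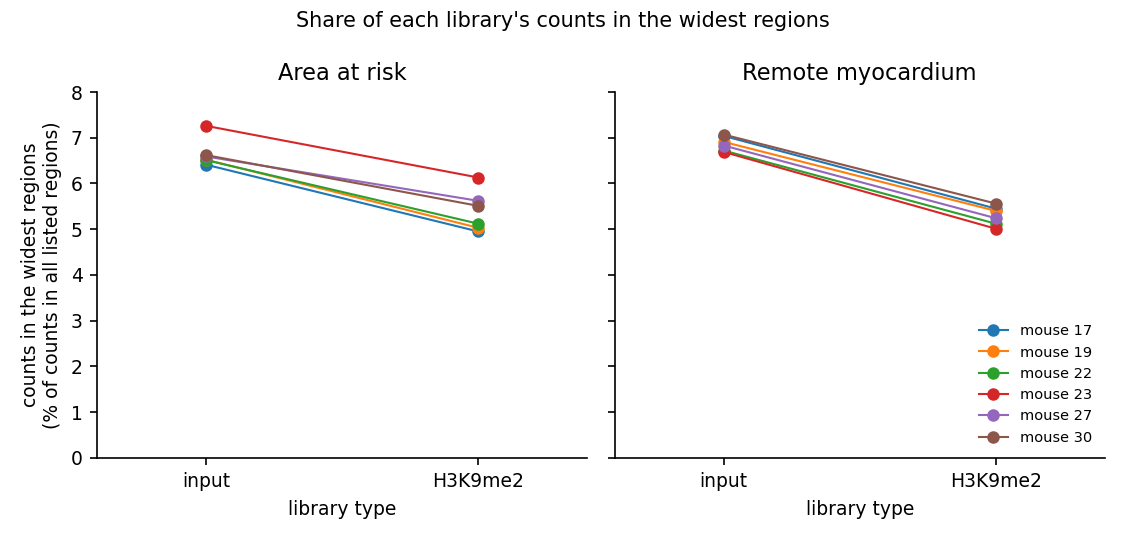
Each library's counts in the widest regions as a percent of its counts in all listed regions (vertical axis), for input and H3K9me2 (horizontal axis), with a line per mouse and a panel per biopsy. All 6 lines fall from input to H3K9me2 in both panels, and mouse 23 lies highest in the area at risk, at 7.26% and 6.13%.

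Region by region the same direction was called. H3K9me2 was tested against input with edgeR's quasi-likelihood test, fitted to all listed regions that passed its filter on low counts, with Benjamini-Hochberg adjustment over all of them and a threshold of 0.05. In the area at risk 495 of 1092 tested widest regions (45.3%) were lower in H3K9me2 than in input, where 12.3% of all tested regions were. In the same biopsy 56 (5.13%) were higher, where 11.3% of all were. In the remote myocardium 658 of 1093 (60.2%) were lower, against 20% of all tested regions, and 65 (5.95%) were higher, against 20.5%. Wide regions hold more reads, which raises the power of a test. Among regions in the highest 10% of total counts, 23.1% were lower and 17.4% higher in the area at risk. In the remote myocardium 33.9% of them were lower and 21.2% higher. That group was drawn from all regions and includes widest ones, so it is not a separate reference. The median log2 fold change of the widest regions was -0.32 (area at risk) and -0.42 (remote myocardium), where the medians over all tested regions were 0.01 and 0.01. Those of the highest 10% by counts were -0.04 and -0.09. The median standard error of a single region was 0.13 in either biopsy. Of the 1116 regions 24 were not tested (area at risk) and 23 (remote myocardium), for too few counts.

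From 4000 bp on, the median log2 fold change was below 0 in both biopsies and lower in each wider class. In regions of 200 to 1400 bp the median log2 fold change over input was 0.02 (area at risk) and 0.11 (remote myocardium). At 1600 to 2800 bp the medians of the 3 classes lay between 0.04 and 0.06 (area at risk) or between 0.06 and 0.08 (remote myocardium), and at 3000 to 3800 bp they were 0.03 and 0.01. At 4000 to 5400 bp the medians were -0.06 and -0.11, and at 5600 to 7000 bp -0.18 and -0.25. Within the widest regions they went from -0.27 and -0.36 at 7200 to 8800 bp to -0.36 and -0.47 at 9000 to 11800 bp and -0.48 and -0.60 at 12000 bp and over. In this last class 70.5% of 112 tested regions were lower (area at risk) and 79.5% (remote myocardium). The share of regions with a start site inside was 10.3% at 200 to 1400 bp, 11.9% at 2400 to 2800 bp and 49.6% at 12000 bp and over. Nothing breaks at the threshold. The 115 regions of exactly 7200 bp had medians of -0.19 and -0.28, and the 120 regions of 7000 bp just outside had -0.17 and -0.22. Across single regions the relation was weak, with a Spearman correlation between width and log2 fold change of -0.18 over the widest regions in either biopsy (n = 1092 and 1093, in the same libraries). Over all autosomal regions tested it was -0.10 (area at risk, n = 40860) and -0.17 (remote myocardium, n = 40700).

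**Figure D2:**
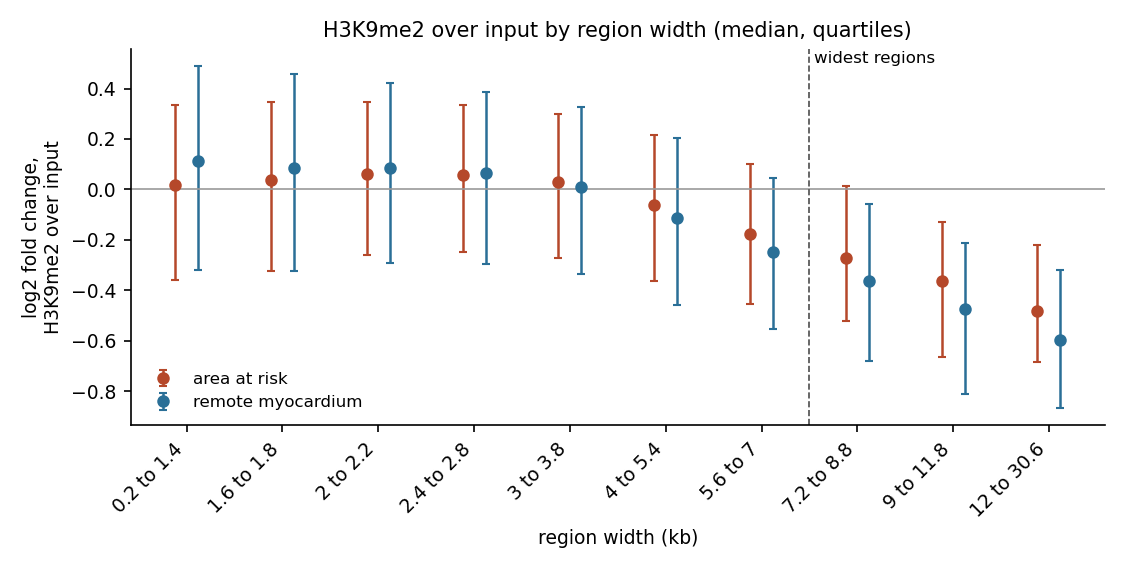
Log2 fold change of H3K9me2 over input (vertical axis) for 10 classes of region width in kb (horizontal axis), with points at the median and bars from the lower to the upper quartile of the tested regions of a class. Medians lie between 0.01 and 0.11 up to 3800 bp and go down from there, and the 3 classes right of the dashed line are the widest regions.

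Position within genes went with the size of the deficit. Widest regions with a start site inside had a median log2 fold change of -0.44 (area at risk) and -0.57 (remote myocardium), and 230 and 285 of 401 were lower. Without a start site the medians were -0.25 and -0.36, with 261 of 678 and 366 of 679 lower. The other regions of the table had -0.32 and -0.38 with a start site, but 0.06 and 0.06 without. Of these other regions 32.8% (area at risk) and 44.4% (remote myocardium) were lower with a start site, and 8.2% and 15.1% without. Where a whole coding gene fitted inside, the widest regions had medians of -0.59 and -0.72. In the area at risk 83 of 117 of them were lower, in the remote myocardium 96 of 118, and 0 were higher in either. Other regions with a whole coding gene inside were low too, with medians of -0.41 and -0.42. Of these 44.0% and 49.6% were lower and 2.78% and 5.28% higher. Regions inside genes had -0.23 and -0.33, against 0.05 and 0.06 for other regions of that kind. Between genes the widest regions lay near 0, at -0.01 and -0.03, where other intergenic regions lay at 0.28 and 0.33. Of the 63 intergenic widest regions tested, 12 were lower and 14 higher in the area at risk, and 15 and 14 in the remote myocardium. Among other intergenic regions 2.96% were lower and 24.3% higher in the area at risk, and 5.51% and 41.0% in the remote myocardium. In each of the classes compared, the median of the widest regions was below that of the other regions. These are medians over regions that share libraries, given without a test.

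**Figure D3:**
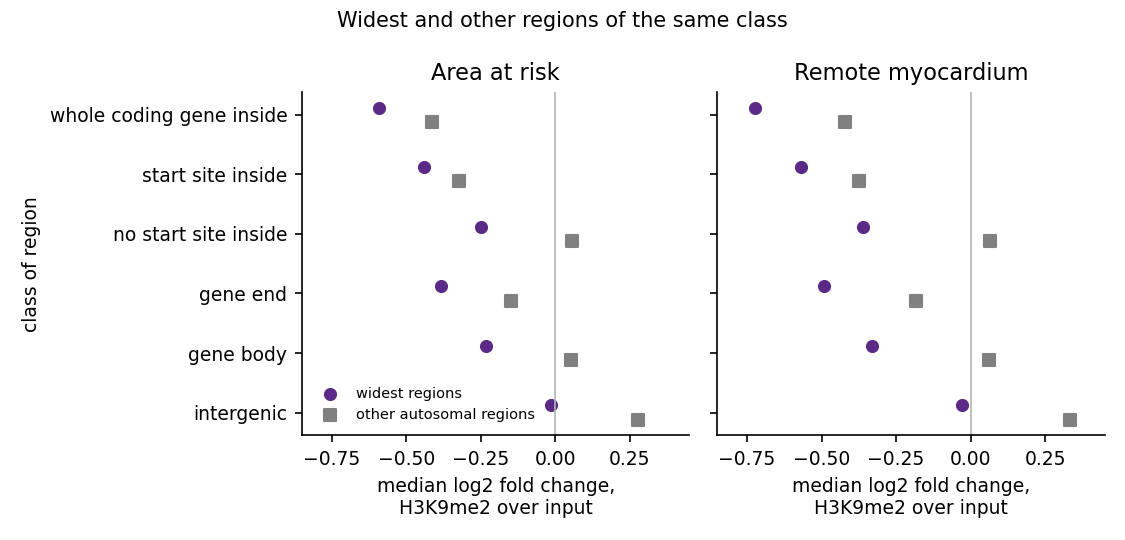
Median log2 fold change of H3K9me2 over input (horizontal axis) for widest and other autosomal regions by class (vertical axis), with a panel per biopsy. The widest regions lie left of the others in all 6 classes, furthest left where a whole coding gene fits inside (-0.59 and -0.72) and nearest 0 between genes (-0.01 and -0.03).

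The biopsies resembled each other. Of 1091 widest regions tested in both, 477 were lower in both, 40 were higher in both and 0 were lower in one and higher in the other. By sign alone 823 were below 0 in both and 158 above 0 in both. The log2 fold changes of the biopsies correlated at r = 0.891 (Spearman 0.888) across these regions, which share the animals but not the libraries and are not independent replicates. In single biopsies 12.3% (area at risk) and 20% (remote myocardium) of all tested regions were lower, and 11.3% and 20.5% higher. Joint calls and the correlation are not given here for the other regions, so whether this likeness is particular to the widest regions was not tested. The regions lower in both were wider and more genic than the rest. Their median width was 9000 bp, 96.0% overlapped a coding gene and 47.6% held a start site. Regions higher in both had a median width of 8200 bp, 55.0% overlapped a coding gene, 15.0% held a start site and 11 of the 40 were intergenic. The 334 regions called in neither biopsy stood between, with 82.0% and 28.7%.

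**Figure D4:**
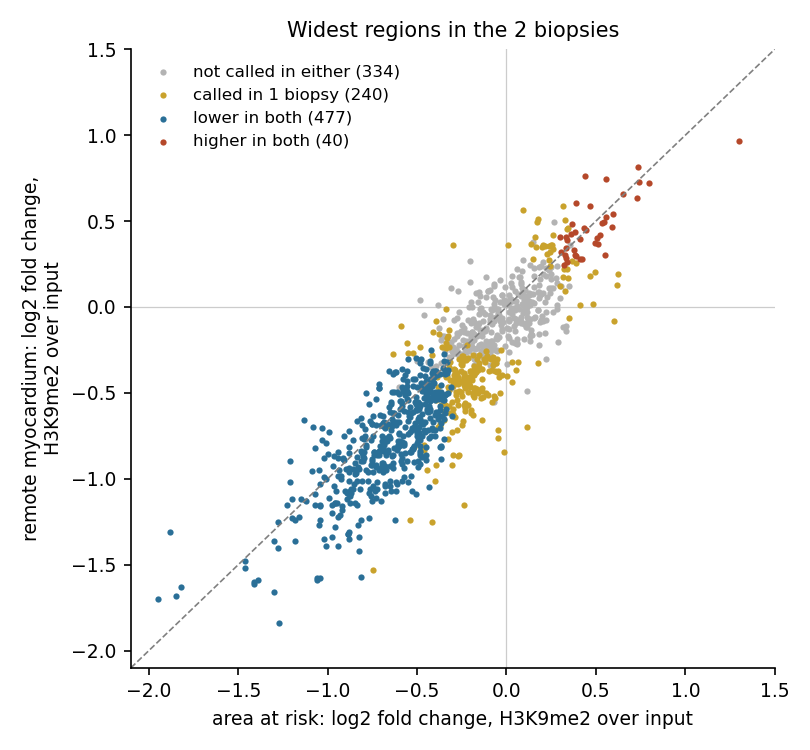
Log2 fold change of H3K9me2 over input in the area at risk (horizontal axis) and in the remote myocardium (vertical axis), with a point per widest region tested in both and colours for its call at an edgeR adjusted p under 0.05. The 477 regions lower in both and the 40 higher in both lie along the diagonal, and none is called in opposite directions.

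The regions described next are among those of smallest p below input. The Kdm6b region, at chr11:69403800-69414799, reaches an end of the gene of the H3K27 demethylase JMJD3. It held 7.2, 13.4 and 25.0 listed-region counts scaled per library (CPM) in H3K9me2 of the area at risk (lowest, median and highest of 6) against 45.1, 60.8 and 67.8 in input. The remote myocardium gave 12.4, 18.5 and 20.4 CPM against 56.5, 57.9 and 61.4. H3K9me2 and input did not overlap in either biopsy. The log2 fold changes were -1.85 (SE 0.18) and -1.68 (SE 0.16), or 0.277 and 0.311 times the input level, with edgeR adjusted p of 1.52e-11 and 1.27e-19, lower in 6 of 6 mice in each biopsy.

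Hdac5, a class IIa histone deacetylase of cardiomyocytes, has a widest region inside the gene at chr11:102214200-102221599. It held 16.3, 23.4 and 28.8 CPM in H3K9me2 of the area at risk against 51.3, 54.7 and 69.8 in input. The remote myocardium gave 13.5, 22.4 and 30.6 CPM against 52.5, 58.0 and 75.7. No H3K9me2 library reached the lowest input, and the log2 fold changes were -1.28 (SE 0.16) and -1.40 (SE 0.15), with edgeR adjusted p of 1.89e-08 and 2.03e-15.

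The smallest p below input in the area at risk was at Rhof. The Rhof region, at chr5:123129800-123139999, held 10.8, 16.8 and 18.4 CPM in H3K9me2 of the area at risk against 50.7, 58.3 and 69.4 in input. Remote myocardium gave 9.02, 14.3 and 25.5 against 43.8, 52.6 and 58.5. This is a deficit to 0.283 and 0.322 times input, with log2 fold changes of -1.82 (SE 0.16) and -1.63 (SE 0.17) and edgeR adjusted p of 2.3e-12 and 6.04e-17. Hook2 (-1.23 and -1.15), Tns2 (a focal adhesion protein, -1.46 and -1.48) and Efna1 (the ligand ephrin-A1, -1.12 and -1.13) were lower in both biopsies too, in 6 of 6 mice each.

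A region of 26000 bp, at chr10:81288000-81313999, overlaps Pip5k1c, a kinase that makes PIP2, Tjp3, a tight junction protein, and the noncoding gene Gm16315. It held 70.2, 101 and 143 CPM in H3K9me2 of the area at risk against 175, 193 and 228 in input, and 69.7, 88.9 and 115 CPM against 162, 194 and 233 in the remote myocardium. Inputs and H3K9me2 did not overlap. The log2 fold changes were -0.89 (SE 0.11) and -1.08 (SE 0.09), with edgeR adjusted p of 4.87e-08 and 2.51e-22.

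Others among the 10 widest regions lie at Gm13056, Hjurp (a pair of regions), Rexo1 (an RNA exonuclease), Ahdc1 (an AT-hook protein), Aspg (an asparaginase), Arhgef17 (a GTPase exchange factor) and Zdhhc18 (a palmitoyltransferase). Of these, 6 were tested, and all 6 were lower in both biopsies, from -0.36 at Arhgef17 to -0.87 at Ahdc1 (area at risk) and from -0.46 at Aspg to -1.14 at Ahdc1 (remote myocardium). The pair of regions over Hjurp, the chaperone of the centromeric histone CENP-A, overlap each other for most of their length and kept too few counts for the test, with medians of 0.418 to 6.66 CPM per group.

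The Vegfa region at chr17:46023600-46034399 overlaps no other listed region and covers the promoter printed above. It held 38.4, 45.3 and 63.8 CPM in H3K9me2 of the area at risk against 93.9, 97.8 and 109 in input. Its remote values were 29.0, 50.3 and 83.5 CPM against 89.3, 103 and 118. No library of the groups overlapped, and the log2 fold changes were -1.05 (SE 0.12) and -0.95 (SE 0.11), with edgeR adjusted p of 6.49e-09 and 5.23e-13.

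The Sphk2 region at chr7:45705400-45715999 also reaches Dbp, a circadian transcription factor, and Rpl18, a protein of the large ribosomal subunit. It held 28.8, 34.6 and 61.9 CPM in H3K9me2 of the area at risk against 80.1, 90.5 and 101 in input, and 27.4, 31.7 and 43.8 CPM against 92.6, 102 and 117 in the remote myocardium. The groups did not overlap, at log2 fold changes of -1.04 (SE 0.14) and -1.58 (SE 0.12) with edgeR adjusted p of 1.04e-07 and 8.14e-27.

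Hspg2, the gene of the basement membrane proteoglycan perlecan, has a region inside the gene at chr4:137472800-137488799. H3K9me2 of the area at risk gave 51.9, 79.7 and 85.3 CPM against 119, 137 and 171 in input, and the remote myocardium 43.6, 60.8 and 80.5 CPM against 140, 152 and 182. Here too the groups stood apart, with log2 fold changes of -0.89 (SE 0.12) and -1.32 (SE 0.10) and edgeR adjusted p of 1.14e-07 and 8.14e-27. The Amotl2 region (an angiomotin of the Hippo pathway, chr9:102717400-102726599) held 23.0, 28.2 and 35.6 CPM against 49.5, 62.6 and 69.4 in the area at risk. In the remote myocardium it held 11.3, 21.5 and 26.5 CPM against 51.5, 65.6 and 74.4. Its log2 fold changes were -1.06 (SE 0.15) and -1.59 (SE 0.15), with edgeR adjusted p of 4.27e-07 and 7.17e-19. Ak1 (adenylate kinase, -0.94 and -1.39) and Bcl9l (a Wnt coactivator, -1.02 and -1.35) were lower in 6 of 6 mice as well.

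A region this far below input can also lie outside genes. At chr8:84197600-84205999, 2518 bp from the microRNA gene Mir23a, H3K9me2 held 7.2, 12.7 and 21.7 CPM in the area at risk against 45.3, 54.4 and 64.2 in input. Remote libraries held 4.99, 19.0 and 26.1 CPM against 48.5, 57.8 and 66.7. These are 0.259 and 0.308 times input, log2 fold changes of -1.95 (SE 0.18) and -1.70 (SE 0.16) with edgeR adjusted p of 1.01e-11 and 7.17e-19.

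Of the 40 regions above input in both biopsies, 22 overlap a coding gene and 11 are intergenic. The intergenic region at chr10:60876800-60885199, 3407 bp from Gm36750, held 90.3, 119 and 157 CPM in H3K9me2 of the area at risk against 64.3, 67.5 and 87.1 in input. The remote myocardium gave 115, 128 and 160 CPM against 73.2, 74.7 and 76.1. All H3K9me2 libraries lay above all inputs of their biopsy, at 1.66 and 1.76 times input, with log2 fold changes of 0.74 (SE 0.12) and 0.81 (SE 0.09) and edgeR adjusted p of 4.24e-06 and 9.34e-14. Within Fam20c, a kinase of secreted proteins, the region at chr5:138784400-138797199 held 98.6, 132 and 155 CPM in H3K9me2 of the area at risk against 76.2, 89.8 and 92.6 in input. In the remote myocardium it held 102, 121 and 134 CPM against 72.6, 88.0 and 97.5. H3K9me2 and input did not overlap, and the log2 fold changes were 0.54 (SE 0.11) and 0.49 (SE 0.09), with edgeR adjusted p of 2.21e-04 and 5.79e-06.

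The noncoding genes Gm36684 and Gm36798 share a region at chr17:13178000-13188799, which covers the Gm36798 promoter printed above. It held 46.8, 59.5 and 93.6 CPM in H3K9me2 of the area at risk against 23.4, 35.0 and 51.3 in input, and these groups overlapped. In the remote myocardium 54.0, 72.0 and 76.7 CPM stood apart from 37.2, 40.0 and 46.7. The log2 fold changes were 0.80 (SE 0.16) and 0.72 (SE 0.12), with edgeR adjusted p of 1.77e-04 and 1.6e-07, higher than input of the same mouse in 6 of 6 mice in each biopsy. A further region of Gm36684, at chr17:13305800-13314199, was at 0.56 and 0.75, and that of Gm33148, at chr7:142586600-142596999, at 0.55 and 0.49. An intergenic region near Gm51967 (0.52 and 0.42), Tmem72 (0.47 and 0.59) and 1700025G04Rik (0.39 and 0.61) were higher in both biopsies as well. The intergenic region at chr12:20226400-20234599, near Gm32719, held 232, 346 and 425 CPM against 160, 228 and 264 in the area at risk and 274, 325 and 427 CPM against 179, 241 and 263 in the remote myocardium. The groups overlapped in the area at risk only, and the log2 fold changes were 0.56 (SE 0.12) and 0.53 (SE 0.08), with edgeR adjusted p of 3.61e-04 and 2.12e-09.

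Of genes named Zfp, most of which encode DNA-binding zinc finger proteins, many of them repressors with Trim28, 12 have a widest region. Any autosomal region reached 169 genes of this name, and 8.49% of all genes with any autosomal region had a widest one. The 12 include Zfp335os, which shares the region of Zfp335, and the regions number 13. In either biopsy 3 were higher than input, while 4 were lower (area at risk) and 5 (remote myocardium). Over all tested regions 11.3% and 20.5% were higher and 12.3% and 20% lower. Over the widest regions 5.13% and 5.95% were higher and 45.3% and 60.2% lower. All 3 higher ones lie on chromosome 4 within 1 stretch where Zfp genes stand in near-identical copies. A further region of Zfp978 there, at chr4:147180800-147188799, was called in neither biopsy (0.26 and 0.49, edgeR adjusted p of 0.517 and 0.0955). How reads with several places were counted is not given in the sources used here, so these values are uncertain. The Zfp978 region at chr4:147389400-147406199 held 266, 420 and 580 CPM in H3K9me2 of the area at risk against 159, 279 and 367 in input, and 322, 432 and 514 CPM against 220, 258 and 317 in the remote myocardium. The groups overlapped in the area at risk and not in the remote myocardium, at log2 fold changes of 0.65 (SE 0.13) and 0.66 (SE 0.07), with edgeR adjusted p of 2.62e-04 and 3.63e-14. The other 2 higher ones were regions of Zfp993, at 0.74 and 0.73 (chr4:146530400-146540199, not called in the area at risk by DESeq2, at 0.76 with an adjusted p of 0.0707) and at 1.30 and 0.96 (chr4:146716400-146724799). Zfp469, Zfp335, Zfp629 and Zfp651, on other chromosomes, were lower in both biopsies, from -0.41 to -0.70 in the area at risk.

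**Figure D5:**
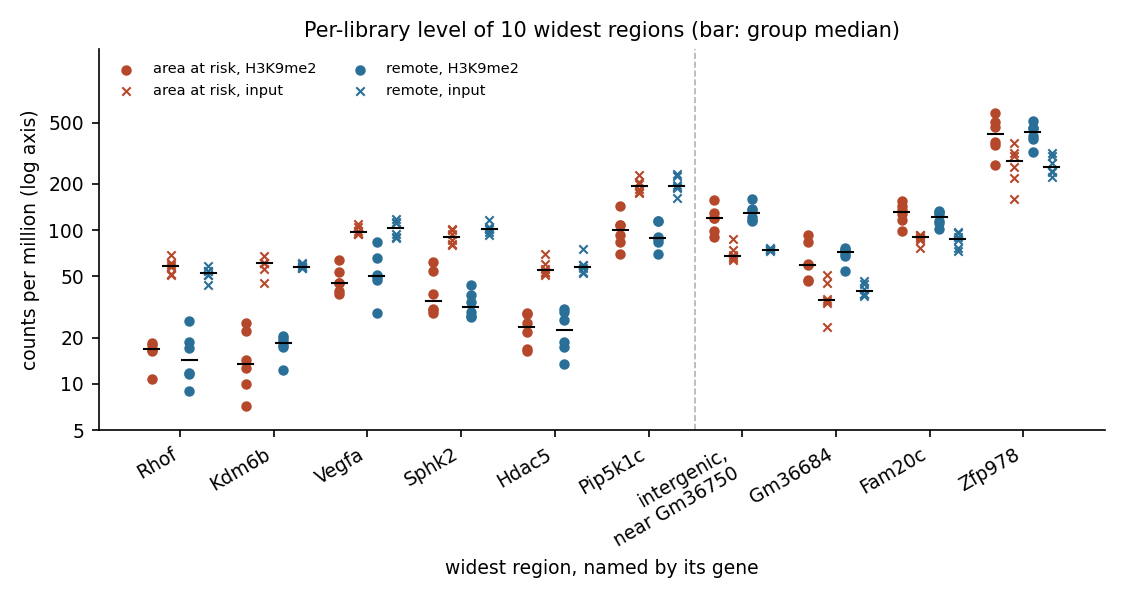
CPM, counts scaled to each library's total in listed regions (vertical log axis), of 10 widest regions (horizontal axis) in each library, with circles for H3K9me2, crosses for input, 1 colour per biopsy and bars at group medians. Left of the dashed line H3K9me2 lies below input (Rhof median 16.8 against 58.3 in the area at risk), and right of it above input (Zfp978 median 420 against 279).

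The gene lists differed in their calls. They hold few regions each, to be read against the 12.3% and 20% of all tested regions that were lower, and against 45.3% and 60.2% of the widest regions. Ribosomal protein genes, most of them transcribed in every cell, had 6 widest regions over 7 genes (of 50 with any autosomal region), and 6 of 6 were lower in both biopsies. The deepest was that of Rpl13a, at -1.41 and -1.60, and the shallowest Rpl3l, a muscle form, at -0.46 and -0.56. Of the housekeeping genes, Actb, cytoplasmic actin, was lower at -1.18 and -1.24, and the other was again Rpl13a. Of the heterochromatin and corepressor genes described here, Hdac5, both regions of Hdac7, another class IIa deacetylase (-0.80 and -0.77 at 1 of them, -1.0 and -0.86 at the other), and the DNA methyltransferase gene Dnmt3a (-0.45 and -0.52) were lower in both biopsies.

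Among genes of mTOR, the kinase that couples growth to nutrients, 4 of 22 had a widest region. Akt1 (-1.07 and -1.09), an upstream kinase, Ddit4 (-0.92 and -1.18), an inhibitor induced by hypoxia, and both regions of the inhibitor Tsc2 (-0.81 and -1.01, and -0.82 and -0.64) were lower in both biopsies. The scaffold gene Rptor had 2 regions, called higher in the area at risk at chr11:119683400-119690999 (0.39 and 0.26, edgeR adjusted p of 0.0194 and 0.0824) and in the remote myocardium at chr11:119743000-119750199 (0.20 and 0.35, edgeR adjusted p of 0.207 and 0.00569). In the hypoxia list Vegfa and Ddit4 were lower, and Pfkfb4, a glycolytic regulator, lay at -0.16 and -0.24 (edgeR adjusted p of 0.485 and 0.224). Of the immediate early genes, Ier3 alone had a widest region (-1.02 and -0.99), lower in both biopsies.

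Cardiac lists reached the widest regions with 1 of 17 sarcomere genes, 2 of 11 calcium handling and channel genes and 1 of 11 transcription factors and hormones, where 8.49% of all genes with any autosomal region had a widest one. Of the sarcomere genes Myl2, the ventricular myosin light chain, lay at -0.14 in the area at risk (edgeR adjusted p = 0.444) and lower at -0.49 in the remote myocardium (edgeR adjusted p = 3.87e-04). Mef2d, a cardiac transcription factor, was lower at -0.83 and -0.93, and Hrc, a calcium-binding protein of the sarcoplasmic reticulum, at -0.48 and -0.44. Kcnq1, a potassium channel gene, was above input at 0.26 (edgeR adjusted p = 0.0607) and 0.34 (edgeR adjusted p = 0.00107). Of the collagen genes, Col4a1 was lower at -0.45 and -0.89, and Col4a2 lay at -0.20 and -0.17 without a call. Among H3K9 demethylases Kdm4b had 1 of 2 regions lower (-0.81 and -0.87), and Kdm3b lay at -0.11 and 0.09. Neuronal genes, silent in heart muscle, had 5 regions: both regions of the splicing factor gene Rbfox3 were higher in both biopsies (0.44 and 0.76, and 0.38 and 0.33), the glutamate receptor gene Grin1 was lower (-0.58 and -0.79), and Nrxn2 and Shank3 were not called.

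In 4 further lists with 1 gene each, the histone gene H1f0 was lower in both biopsies (-0.45 and -0.60), the imprinted gene Cdkn1c (-0.19 and -0.28) and the protocadherin gene Pcdh1 (-0.51 and -0.71) in the remote myocardium, and Hoxb3 (-0.35 and -0.17) was called in neither. Differences between the biopsies were tested by the interaction given after the biopsy contrasts, which called none. No widest region touched the listed endothelial and mural, immune, oxidative phosphorylation and fatty acid oxidation, germ line, odorant receptor or keratin genes. Only 13, 4, 18, 8, 11 and 19 of these genes had any autosomal region, and 8.49% of all such genes had a widest one. The lists do not hold every gene of their kind. Uqcr11, a respiratory chain gene outside the list, gives its name to a widest region of the cluster at chr10:79911800-80412199.

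The comparison of the biopsies asks whether the occluded tissue carries the mark elsewhere than tissue of the same heart that kept its blood supply. Between the H3K9me2 libraries edgeR called 0 of 1047 tested widest regions, and 0% of all tested regions. DESeq2 also called 0. At an unadjusted edgeR p under 0.05, 56 widest regions (5.35%) were higher in the area at risk, against 2.14% of all tested regions. Lower were 7 (0.669%), against 1.89%. DESeq2 had 22 and 4 at that level. The median log2 fold change was 0.06, over all regions 0.00. The value rested on mouse 23. Without it the median was -0.02, with 17 higher and 39 lower at an unadjusted edgeR p under 0.05. Its libraries of the area at risk held the most counts and the largest shares in the widest regions of that biopsy.

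The input libraries, which saw no antibody, gave 0 of 1101 called by edgeR and by DESeq2. At an unadjusted edgeR p under 0.05, 3 (0.272%) were higher, against 1.43% of all tested regions, and 40 (3.63%) lower, against 1.28%. DESeq2 had 3 and 19 at that level. The median was -0.03, and -0.08 without mouse 23, with 5 higher and 125 lower. The difference of the H3K9me2 over input contrasts, tested as an interaction over all 24 libraries, called 0 of 1099 in edgeR. There 80 (7.28%) were higher at an unadjusted edgeR p under 0.05, against 2.29% of all tested regions, and 6 (0.546%) lower, against 1.78%. Its median was 0.11, against 0.01 over all tested regions and 0.05 over those with the highest total counts. Without mouse 23 the median of the widest regions was 0.08, with 52 higher and 14 lower. A value above 0 stands for a smaller deficit in the area at risk. By mouse, the median ran from -0.06 (mouse 19) to 0.25 (mouse 23). It was 0.02 in mouse 17, 0.03 in mouse 22, 0.16 in mouse 27 and 0.05 in mouse 30. Whether the median differs from 0 was not tested. The contrasts of the biopsies share their libraries, so the counts of regions given for them are not separate evidence.

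None of the regions of smallest p between biopsies passed the threshold. Camta2, a transcriptional coactivator in cardiomyocytes, shares its region at chr11:70668600-70677199 with Spag7. H3K9me2 gave 19.8, 46.5 and 68.1 CPM in the area at risk and 18.9, 28.2 and 37.2 in the remote myocardium, with overlap. Input gave 51.8, 56.0 and 72.2 against 60.4, 62.8 and 69.0. The log2 fold change between H3K9me2 libraries was 0.81 (SE 0.19), higher in 5 of 6 mice (edgeR adjusted p = 0.735). Without mouse 19 it was 1.01 with an edgeR adjusted p of 0.0179, the only widest H3K9me2 region called between biopsies when any 1 mouse was left out. Against input the region was lower in the remote myocardium (-1.15, edgeR adjusted p = 1.02e-12) and not called in the area at risk (-0.24, edgeR adjusted p = 0.236), and the interaction was 0.92 (SE 0.21, edgeR adjusted p = 0.61).

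On the same side came Anks3 (0.88) and Mob3a, a MOB kinase activator gene (0.58), each with an edgeR adjusted p of 0.999. On the other side the Hpn region at chr7:31109400-31117999 gave 25.0, 29.0 and 45.6 CPM in H3K9me2 of the area at risk and 35.0, 44.9 and 54.1 in the remote myocardium. Input gave 27.0, 34.8 and 46.7 CPM against 25.9, 35.9 and 41.9. All these groups overlapped, and the area at risk was lower in 6 of 6 mice, at a log2 fold change of -0.56 (SE 0.18, edgeR adjusted p = 0.999). Rasa4, a Ras GTPase activator gene (-0.42), and Ttc21a (-0.49) followed.

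Among inputs the largest difference by p was at Ip6k1, an inositol phosphate kinase gene, with its neighbours Gmppb and Rnf123 (chr9:108044800-108052599). Input held 32.4, 37.8 and 45.4 CPM in the area at risk and 47.2, 50.3 and 57.8 in the remote myocardium, without overlap, while H3K9me2 held 13.4, 18.6 and 33.4 CPM against 14.5, 23.6 and 29.4. The input log2 fold change was -0.40 (SE 0.10), lower in 6 of 6 mice (edgeR adjusted p = 1). Prss56 (-0.22) and an intergenic stretch near Phb (-0.23) were the next lower, and Rapgef1 (0.29), Emid1 (0.23) and Zbtb39 (0.20) the higher ones, none called. In the interaction Gramd4 (0.60) and Mob3a (0.59) followed Camta2, with Hpn (-0.67), Rhoq (-0.46) and Emid1 (-0.41) on the lower side, and edgeR adjusted p of 1 for each of these.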

How the data were processed

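H3K9me2 ChIP-seq and input libraries of 6 mice, 2 biopsies each, were compared. The authors deposited 4 tables (mm10) that list identical regions, with raw counts per region and library as whole numbers, and a log2 fold change, a log2 mean CPM, a p-value and its FDR per region, per the file headers. Bowtie2 2.2.2, SICER 1.1 and edgeR are named without roles, per the submitters' processing notes, and duplicate removal and the counting of shared reads are not given in the sources used here. Counts were fitted here with edgeR 4.0.16 (R 4.3.3), TMM, filterByExpr and the two-sided quasi-likelihood test on the libraries of a contrast, or on all 24 for the interaction, called at FDR 0.05, and checked on simulated data. DESeq2 1.42.0 was the other tool. CPM are counts scaled to each library's total in listed regions, without TMM. Genes and promoters are from RefSeq GRCm38.p6. The promoter table holds no chromosome 18 entry, so start sites were counted over 1103 of the 1116 regions.

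Members and gene lists were chosen with earlier results of these data known. Named regions are the 10 widest, the 8 of smallest p per direction and biopsy among those called and of that direction in at least 5 of 6 mice, the 3 of smallest p per direction between biopsies, listed genes and the regions at the threshold. A region takes the name of the coding gene it overlaps most, or else of another gene. Some regions and genes that this rule names are not reported here. Promoters printed are those of the lower regions of smallest p whose named gene starts inside, 3 for the area at risk and 1 for the remote myocardium, and of the 2 such higher regions with any start site, the most upstream where there are several. Mouse numbers stand for the same animals in all groups. Deviations of same-mouse libraries from their group means correlated at -0.03 to 0.23 (H3K9me2 and input, area at risk), 0.04 to 0.12 (remote myocardium), -0.16 to 0.07 (H3K9me2 between biopsies) and -0.11 to 0.10 (inputs). Alternatives were the mouse as a block, other size factors, no TMM, DESeq2, no filter, autosomes only, each mouse left out, FDR 0.01, regions without overlap, other width percentiles and other gene-end windows. Sequencing depth limits single regions, with a median standard error of 0.16 for H3K9me2 between biopsies.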

Additional observations from a re-analysis of the deposited data

Results flagged for a closer look

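Of 76 groups of 6 libraries checked, 6 held a library set apart from the other 5 by more than Dixon's 95% limit, and chance sets apart about 1 in 20 groups. For the share of counts in the widest regions, the input of the area at risk of mouse 23 stood at 7.26%, against 6.41 to 6.62% in the others. The Rhof region held 10.8 CPM in H3K9me2 of the area at risk of mouse 19, against 16.3 to 18.4. The Kdm6b region held 12.4 CPM in H3K9me2 of the remote myocardium of mouse 19, against 17.5 to 20.4. The Hdac5 region held 75.7 CPM in input of the remote myocardium of mouse 23, against 52.5 to 59.3. At Hspg2, H3K9me2 of the area at risk of mouse 30 held 51.9 CPM, against 75.6 to 85.3. At Fam20c, input of the area at risk of mouse 30 held 76.2 CPM, against 86.5 to 92.6.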

How the results depend on the processing

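No result changed direction between H3K9me2 and input under any alternative. Of the values of single named regions 772 kept their call and direction, 1 lost it (Zfp993 in the area at risk at 0.76 with a DESeq2 adjusted p of 0.0707) and 1 gained it (Camta2 without mouse 19). Many of these regions were named for their small p, which favours stable calls. DESeq2 called 457 of the 551 widest regions called by edgeR in the area at risk, and 654 of 723 in the remote myocardium. With the mouse as a replicate block, 66 widest regions were higher and 536 lower in the area at risk, and 70 and 668 in the remote myocardium; it changed no other call count by over 1.5 times and called 0 between biopsies. With 1 mouse left out, counts in the area at risk ran from 38 to 53 higher and 433 to 495 lower, and in the remote myocardium from 55 to 63 and 621 to 644. Between biopsies, 0 to 1 H3K9me2 regions were called higher, and the H3K9me2 median ran from -0.02 to 0.09. At FDR 0.01, 29 regions were higher in the area at risk. Among regions that overlap no other, which are fewer by construction, 25 were higher and 164 lower in the area at risk, and 30 and 201 in the remote myocardium with a median of -0.36. The 2824 regions at or above the 95th percentile of width (5600 bp) gave 199 higher and 936 lower in the area at risk and 238 and 1332 in the remote myocardium with a median of -0.32. They held 11.5, 13.3, 11.4 and 13.9% of counts (medians, in the order area at risk H3K9me2, its input, remote H3K9me2, its input). The 538 at or above the 99th percentile (8600 bp) gave 23 and 283, 22 and 356 with a median of -0.48, and 2.91, 3.71, 2.91 and 3.89% of counts. With gene ends taken within 1 kb, 61.7% of the widest regions were at gene ends and 31.8% inside genes. Within 5 kb these were 74.8% and 21.0%, with 4.21% intergenic. Size factors or no TMM moved the median of all tested regions by at most 0.01. Depth limits the contrasts between biopsies: 69 widest regions were too low to test between H3K9me2 libraries.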

Other observations

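Read density set a few of the widest regions apart. The median widest region held 234 counts per kb over the 24 libraries, counted on the stretch no other region covers. The pseudogene Pisd-ps2 region at chr17:3076200-3084999 held 1150 per kb and the intergenic region near Gm32719 876. The Zfp978 region at chr4:147389400-147406199 held 516. All 3 were higher in H3K9me2 than in input in both biopsies by edgeR. Pisd-ps2 lay at 0.50 (edgeR adjusted p = 0.00288) and 0.37 (edgeR adjusted p = 1.73e-05). At the other end, regions at Gm21811 and Gm21092 on chromosome 8 held 2.6 to 3.91 counts per kb and could not be tested. They were picked for their density after the values were seen.

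The authors' deposited table of input over H3K9me2 in the area at risk had 489 of 1116 widest regions with a positive fold change at a deposited FDR under 0.05. A negative one was found in 58. Over all 53386 regions the counts were 5045 and 4162. For the remote myocardium the authors' deposited table had 634 and 62 widest regions, against 7630 and 7593 of all regions. In the authors' deposited tables between biopsies 0 widest regions had an FDR under 0.05, for H3K9me2 and for input.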
